A study of Mus musculus with 5 samples.

Results

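The mitochondrial carrier family Slc25 was followed as 40 genes of 17228 in the gene table of this heart series. The members were the rows whose gene symbol starts with Slc25a, apart from Slc25a20, and whose estimated read counts summed to at least 10 over the libraries. Of the 44 symbols with this start, Slc25a43 (6 counts), Slc25a2 (7) and Slc25a21 (7) fell under that sum. Slc25a31 (10 counts) and Slc25a53 (12) lay just above it, and Slc25a20 was not analysed here. All 40 members carried the Pfam carrier domain in the table's own annotation, as did 51 genes in all. They lay on 18 chromosomes, with 3 on the X chromosome.

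Carriers of this family sit almost all in the inner mitochondrial membrane. In each, repeated pairs of helices surround a substrate site that opens alternately to the cytosol and to the matrix. These carriers exchange adenine nucleotides, phosphate, organic acids, amino acids, cofactors and metals that the matrix needs but that cannot cross the membrane by themselves. In heart muscle, which lives on oxidative phosphorylation, the ADP/ATP carrier and the phosphate carrier supply the ATP synthase and export its product, and the malate-aspartate shuttle brings reducing equivalents from cytosolic NADH into the matrix.

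Poly-A RNA was measured in 5 hearts taken at 6 months of age. The 3 db/db libraries (females 1 and 2, male 3) came from mice labelled KsJ-Lepr db/Lepr db and diabetic, which lack the long form of the leptin receptor in every cell and become obese. The 2 WT libraries (female 1, male 2) came from mice labelled non-diabetic. All carry the strain label C57BL, KsJ appears only in the db/db genotype, and the growth protocol speaks of male mice although 3 libraries are labelled female. No label says that each library is a separate animal, so the p-values rest on the spread among these 5 libraries, which may be technical. The libraries held 8356099 to 10381326 estimated counts, and 14685 to 15132 genes were detected in each. Lepr itself, the mutated gene, had 3, 7 and 5 counts in db/db hearts, against 37 and 14 counts in WT hearts.

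The promoters of the heart and the ubiquitous ADP/ATP carriers, Slc25a4 and Slc25a5, are shown because these paralogs make the same exchange and stand at very different levels in these hearts. Each sequence is the 250 bases before the annotated start in RefSeq (GRCm38.p6), read along the gene's strand from 5′ to 3′. Slc25a4 is at chr8:46211063-46211312 on the minus strand, and capitals mark the CCAAT boxes, at positions -112 to -108 and -56 to -52 from the start. Slc25a5 is at chrX:36795347-36795596 on the plus strand, and capitals mark the reverse complement of the Sp1 motif GGGCGG, at positions -14 to -9.
Slc25a4: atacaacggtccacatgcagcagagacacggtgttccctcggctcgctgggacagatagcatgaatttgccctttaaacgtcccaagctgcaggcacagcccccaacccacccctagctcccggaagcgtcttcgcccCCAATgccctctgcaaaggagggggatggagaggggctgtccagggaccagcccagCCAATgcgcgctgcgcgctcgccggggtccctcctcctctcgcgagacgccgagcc
Slc25a5: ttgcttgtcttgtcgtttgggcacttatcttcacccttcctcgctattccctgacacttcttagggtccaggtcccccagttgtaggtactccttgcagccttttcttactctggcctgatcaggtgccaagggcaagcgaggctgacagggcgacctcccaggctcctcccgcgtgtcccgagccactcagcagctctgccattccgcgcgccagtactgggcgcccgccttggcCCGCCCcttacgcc
Promoter sequences were at hand for 31 of the 40 members and for 13518 genes of the table. On either strand, GGGCGG was found in 22 of the 31 carrier promoters (71.0%), against 52.6% of all promoters of this length. CCAAT was found in 15 (48.4%), against 36.0%. Each motif was searched separately, so letters shared by overlapping matches count under each. TATAAA was found in 1 (3.23%, Slc25a18), against 8.03%, the NRF1 motif in 2 (6.45%, Slc25a3 and Slc25a31), against 6.72%, and the estrogen-related receptor motif AAGGTCA in 1 (3.23%, Slc25a34), against 3.19%. Of the 31 members, 7 stand on the opposite strand in the deposited table than in RefSeq, as do 2049 of the 13518 genes, and RefSeq's strand was used.

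Levels between genes are compared in the deposited FPKM, which are scaled to gene length. The family was dominated by Slc25a4, the heart and muscle ADP/ATP carrier, which exchanges matrix ATP for cytosolic ADP. Its mean over the 5 libraries was 8173 FPKM, the 11th highest of all genes in the table, and it made up 73.9% of the summed mean FPKM of the 40 members. Slc25a3, the phosphate carrier, followed with 1642 FPKM, then Slc25a11, the oxoglutarate/malate carrier, with 428 FPKM. Slc25a5 stood at 225 FPKM, Slc25a39, which is needed for glutathione import, at 157 FPKM, and Slc25a12, an aspartate/glutamate carrier, at 89.9 FPKM. These 6 genes held 96.9% of the family's FPKM. Their order was the same in each of the 5 libraries, and only Slc25a5 and Slc25a39 came near each other across libraries, with 157 to 255 and 145 to 167 FPKM. By the mean over the 5 libraries, 17 members reached 10 FPKM and 4 were under 1 FPKM.

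**Figure D1:**
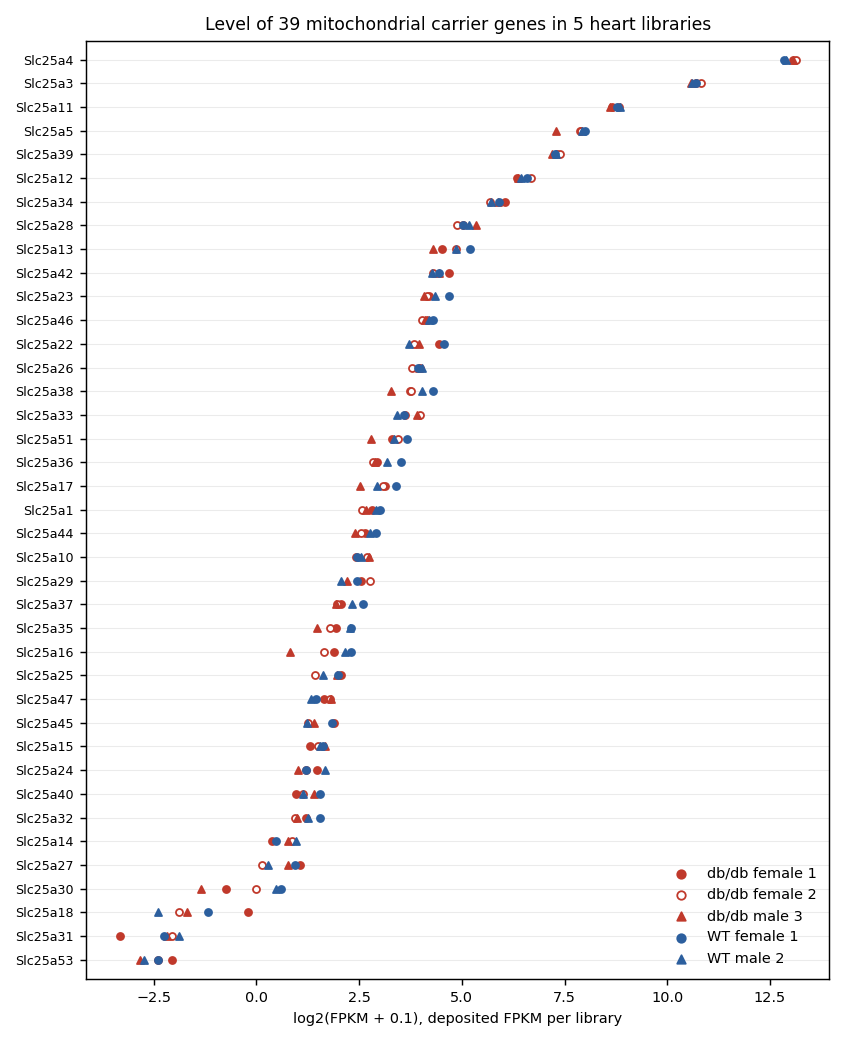
Deposited FPKM of 39 carrier genes in each library, as log2(FPKM + 0.1), ordered by mean; red symbols are db/db and blue symbols WT, circles are females and triangles males. Slc25a4 stands alone at the top with a mean of 8173 FPKM, and 4 genes have means under 1 FPKM.

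The 4 lowest members were Slc25a30, an uncoupling-protein-like carrier, Slc25a18, a glutamate carrier, Slc25a31, the testis ADP/ATP carrier, and the orphan Slc25a53. Slc25a18 had 13, 4 and 3 counts in db/db hearts, against 7 and 1 counts in WT hearts. A count of 0 in a library allows up to 3 counts, or 0.289 to 0.359 CPM (counts scaled to library size), for counting error alone, and Slc25a31 had 0 counts in db/db female 1. The filter on low counts left 37 of the 40 members for testing, without Slc25a18, Slc25a31 and Slc25a53. In 36 members every library had at least 10 counts. Exons of 13 members overlap another gene in GENCODE M21, 11 of them on the opposite strand, and no source used here says whether counting used strand.

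No carrier passed the test of db/db against WT hearts. With genotype alone in edgeR's quasi-likelihood test, 0 of the 37 tested members had a Benjamini-Hochberg adjusted p under 0.05, where 1.03% of the 12540 tested genes were called (0.67% higher and 0.359% lower). An unadjusted p under 0.05 was reached by 5 members, Slc25a4 and Slc25a33 with positive and Slc25a16, Slc25a30 and Slc25a38 with negative fold changes, against a background of 12.9% of genes. DESeq2, with 1.77% of genes called, and the authors' deposited q-values, with 1.35%, also called 0 members. Of the log2 fold changes, db/db over WT, 20 were positive and 17 negative, with a median of 0.02 beside -0.01 over all tested genes, and their median SE was 0.18. With library totals, which put the median of all genes at -0.19, 9 of the 37 were positive, as were 3278 of 12540 genes. With the length and GC offset 18 were. They lay between -1.11 (Slc25a30) and 0.53 (Slc25a47), and 33 of 37 were within 0.5 of 0, as were 85.9% of all genes. The 95% interval stayed inside a 2-fold change in either direction for 34 of the 37, all but Slc25a16, Slc25a30 and Slc25a47, against 77.5% of all genes. The db/db and WT libraries did not overlap in 7 members that were higher and 10 that were lower in db/db, where 15.1% and 16.5% of all genes did so (31.6% in either direction). These are whole hearts, in which fewer cells of a type and less RNA per cell cannot be told apart.

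**Figure D2:**
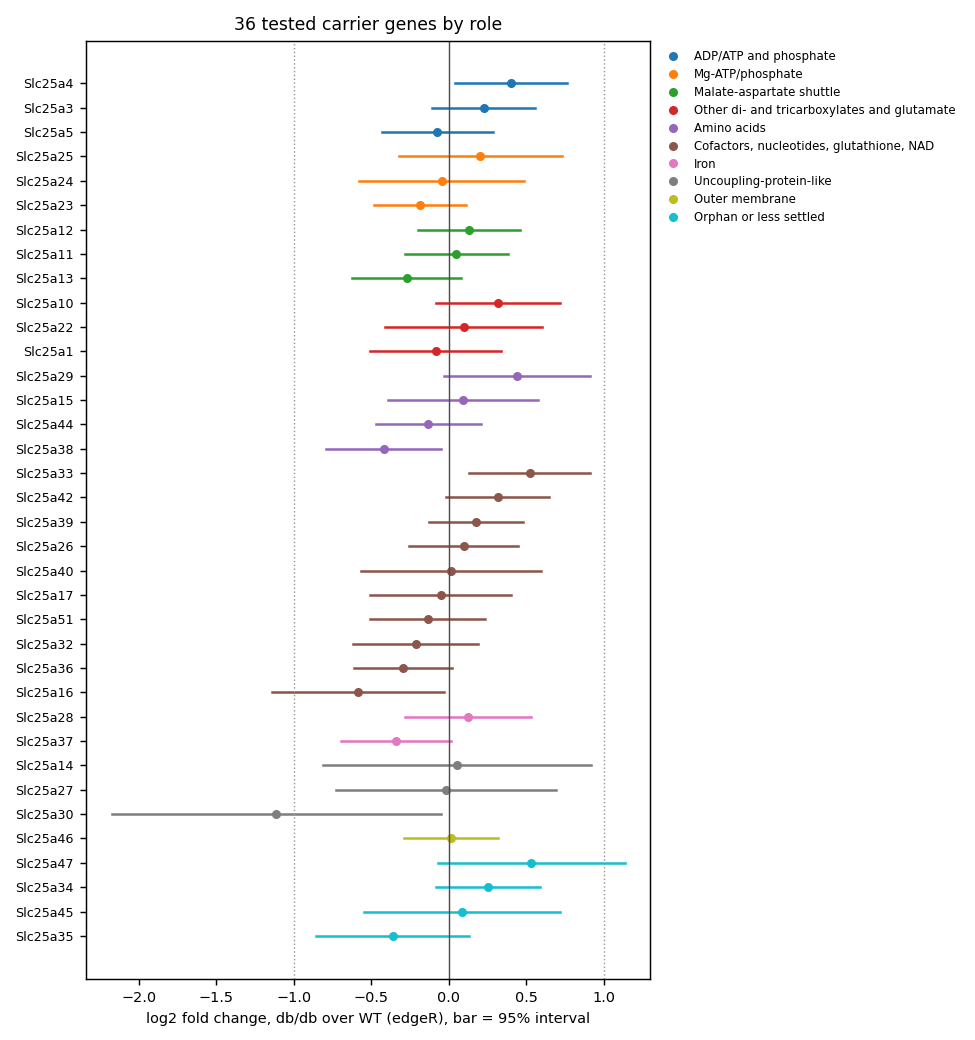
Log2 fold change of 36 of the 37 tested carriers, db/db over WT, by role; points are edgeR estimates from 3 db/db and 2 WT libraries, bars are 95% intervals and dotted lines mark a 2-fold change. The estimates scatter around 0, from -1.11 to 0.53, and the longest bar belongs to Slc25a30.

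Among the ADP/ATP and phosphate carriers, Slc25a4 was higher in all 3 db/db hearts and was called once sex entered the model. Slc25a4 (chromosome 8, 46207168 to 46211062, minus strand) had 8819.6, 9294 and 9888 CPM in db/db females 1 and 2 and the db/db male, against 6633 and 7490.1 CPM in the WT female and male. CPM here are scaled with TMM, edgeR's factors for library composition. All 3 db/db hearts were above both WT hearts, with means of 9334 ± 535 CPM in db/db (SD, n = 3) and 7061 ± 606 CPM in WT (SD, n = 2). The log2 fold change was 0.40 (SE 0.17, 95% interval 0.04 to 0.76) and did not pass with genotype alone (edgeR adjusted p = 0.342). Once sex entered the model it passed, at 0.43 (SE 0.10, edgeR adjusted p = 0.0188), and it was then the only member of 37 called, where 6.61% of genes were. In females alone, 2 db/db against 1 WT library, it was 0.45 (edgeR adjusted p = 0.0147), where 7.67% of genes were called. That fit has no measure of spread within WT: the lone WT library is assumed to vary like the db/db females. In the authors' deposited table its log2 fold change was 0.41 with q = 0.185.

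The fold change of Slc25a4 was smaller with an offset for gene length and GC content. Read density varied with length between libraries: relative to each gene's mean, the 1050 genes with the shortest transcripts (median 794 bases) had a median log2 level of 0.28 in the db/db male, against -0.28 in the WT female. The 1050 longest (median 7461 bases) stood at -0.10 in the db/db male, against 0.18 in the WT female, and the other libraries stayed between -0.06 and 0.01 in both. Over the 37 members the log2 fold change and log2 length had a Pearson r of -0.20 and a Spearman rho of -0.28, and over 11897 tested genes -0.26 and -0.32. Genes of the same libraries are not independent, and these values only describe. Slc25a4 is short, at 1021 bases, and with that offset its log2 fold change was 0.23 (edgeR adjusted p = 0.396). With the offset and sex together it was 0.22 (edgeR adjusted p = 0.209), so the call was lost. Length was not adjusted without GC content. With neither the db/db male nor the WT female, the log2 fold change was 0.27, still higher in 2 of 2 db/db females than in the WT male. Scaling by library totals gave 0.22, where the median of all genes was -0.19. In deposited FPKM the gene had 8514, 8934 and 8537 FPKM in db/db hearts, against 7295 and 7585 FPKM in WT hearts, again without overlap. The 10 cardiomyocyte marker genes had a median length of 1216 bases. They summed to 135787, 134162 and 164045 CPM in db/db hearts, against 110396 and 123699 CPM in WT hearts, with a median log2 fold change of 0.35 and of 0.15 after the offset. Of the 10, 7 had positive and 3 negative values (lowest -0.25), 0 were called with genotype alone and 5 with sex as a covariate. Their part in the Slc25a4 difference was not tested.

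**Figure D3:**
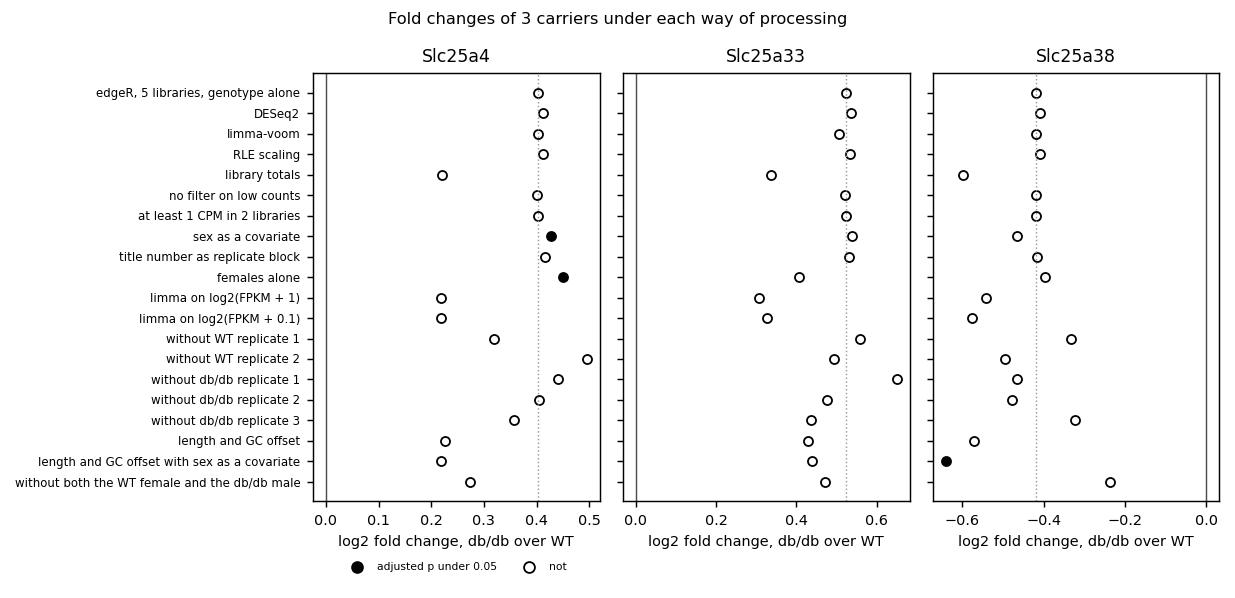
Log2 fold change, db/db over WT, of Slc25a4, Slc25a33 and Slc25a38 under each way of processing the counts or FPKM; filled points had an adjusted p under 0.05, the solid line marks 0 and the dotted line the value with genotype alone. The sign holds throughout for each gene, while Slc25a4 lies between 0.22 and 0.50.

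Slc25a3, which brings in phosphate for ATP synthesis, had 2130.5, 2318 and 2174 CPM in db/db hearts, against 1865 and 1912 CPM in WT hearts. The groups did not overlap, but the log2 fold change of 0.22 (SE 0.15) did not pass (edgeR adjusted p = 0.546), and it was 0.15 with the length and GC offset. In FPKM the groups did overlap, with 1662, 1804 and 1517 FPKM in db/db hearts, against 1661 and 1564 FPKM in WT hearts. The log2 fold change was 0.04 on the log2(FPKM + 1) scale and with library totals, which put the medians of all genes at -0.15 and -0.19. Slc25a5, the ADP/ATP carrier of most other tissues, had 288, 293 and 214 CPM in db/db hearts, against 275 and 283 CPM in WT hearts. Only the db/db male was low, the groups overlapped, and the log2 fold change was -0.07 (SE 0.16, edgeR adjusted p = 0.887). Reads of Slc25a5 may be shared with an annotated pseudogene copy, so its level is less certain. The 40 carriers together took 1.30%, 1.37% and 1.27% of all counts in db/db hearts, against 1.21% and 1.20% in WT hearts. Of the family's FPKM, Slc25a4 took 74.7%, 74.3% and 76.6% in db/db hearts, against 70.9% and 72.7% in WT hearts. The other 39 carriers took 0.432%, 0.459% and 0.392% of counts in db/db hearts, against 0.458% and 0.428% in WT hearts. Their summed FPKM was 2883, 3083 and 2602 in db/db hearts, against 2988 and 2842 in WT hearts. Without Slc25a4 the groups thus overlapped on both of these scales. In TMM-scaled CPM they did not overlap, with 4385, 4675 and 4420 CPM in db/db hearts, against 4069 and 4148 CPM in WT hearts.

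The Mg-ATP/phosphate carriers adjust the matrix adenine nucleotide pool and are regulated by calcium. Slc25a23, the most abundant of them by FPKM, had 61.2, 59.2 and 62.6 CPM in db/db hearts, against 74.3 and 64.3 CPM in WT hearts, a log2 fold change of -0.18 (SE 0.14). Slc25a24 and Slc25a25 had overlapping groups and log2 fold changes of -0.05 and 0.20. None of the 3 passed the edgeR test.

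The malate-aspartate shuttle gave no call in its 3 carriers. Slc25a11, which exchanges malate for oxoglutarate, had 617, 711 and 658 CPM in db/db hearts, against 603 and 676 CPM in WT hearts, with a log2 fold change of 0.05 (SE 0.15) that turned to -0.08 with the length and GC offset. Slc25a12, the aspartate/glutamate carrier of muscle and brain, had 216, 277 and 246 CPM in db/db hearts, against 226 and 223 CPM in WT hearts. The log2 fold change was 0.13 (SE 0.15, edgeR adjusted p = 0.750) and -0.05 with library totals. Slc25a13, the aspartate/glutamate carrier best known from liver, had 69.7, 88.8 and 66.3 CPM in db/db hearts, against 98.2 and 82.8 CPM in WT hearts. A log2 fold change of -0.27 (SE 0.16, edgeR adjusted p = 0.496) was fitted, and of the db/db hearts only female 2 reached the range of WT. The value was -0.41 without db/db female 2 and -0.14 without the WT female.

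Among other carriers of organic acids, Slc25a10, the dicarboxylate carrier, had 20.8, 25.2 and 29.3 CPM in db/db hearts, against 18.5 and 21.7 CPM in WT hearts, a log2 fold change of 0.32 (SE 0.18, edgeR adjusted p = 0.485). Slc25a1, the citrate carrier, was at 11.2, 9.42 and 11.3 CPM in db/db hearts, against 11.2 and 11.3 CPM in WT hearts. Slc25a22, the main glutamate carrier here, varied within both genotypes, with 54.0, 35.4 and 42.5 CPM in db/db hearts, against 51.4 and 30.7 CPM in WT hearts. Its log2 fold change of 0.10 (SE 0.23) says little against that spread.

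The amino acid carriers went in different directions. Slc25a38, which imports glycine for the first step of heme synthesis, had 19.6, 19.8 and 15.7 CPM in db/db hearts, against 26.0 and 23.2 CPM in WT hearts. All 3 db/db hearts were below both WT hearts, and the log2 fold change was -0.42 (SE 0.17, edgeR adjusted p = 0.338). It passed with the length and GC offset and sex as a covariate together, at -0.64 (edgeR adjusted p = 0.0280), where 3.46% of genes were called and it was the only member. With the offset alone it was -0.57 (edgeR adjusted p = 0.198), and with sex alone -0.47 (0.0832). With neither the db/db male nor the WT female, the log2 fold change of Slc25a38 was -0.24. The 7 red cell markers, from the lineage that makes most heme, summed to 6813, 8309 and 8085 CPM in db/db hearts, against 3364 and 9645 CPM in WT hearts. The part of red cells in the Slc25a38 difference was not tested.
Slc25a29, a carrier of basic amino acids, had 10.9, 12.8 and 9.58 CPM in db/db hearts, against 8.95 and 7.41 CPM in WT hearts. Its groups did not overlap, and its log2 fold change was 0.44 (SE 0.22, edgeR adjusted p = 0.413). Slc25a44, which carries branched-chain amino acids, had 21.0, 19.7 and 19.6 CPM in db/db hearts, against 22.3 and 21.8 CPM in WT hearts, a log2 fold change of -0.13 (SE 0.16). Slc25a15, the ornithine carrier, had a log2 fold change of 0.09 with overlapping groups.

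The 11 carriers of cofactors, nucleotides, glutathione and NAD split into 5 positive and 6 negative log2 fold changes, with a median of -0.05. Slc25a33, a pyrimidine nucleotide carrier, had the smallest adjusted p of the family: 22.1, 28.6 and 30.2 CPM in db/db hearts, against 19.2 and 18.3 CPM in WT hearts. All 3 db/db hearts were higher, with a log2 fold change of 0.52 (SE 0.18, edgeR adjusted p = 0.257), and neither sex as a covariate (0.0722) nor the offset (0.332) brought it under the threshold. An antisense gene shares 281 exon bases with Slc25a33, so without strand these reads cannot be told apart. Slc25a36, the other pyrimidine nucleotide carrier, was lower, with 36.6, 34.4 and 38.9 CPM in db/db hearts, against 48.3 and 41.6 CPM in WT hearts and a log2 fold change of -0.30 (SE 0.14, edgeR adjusted p = 0.409). With the offset the log2 fold changes of Slc25a33 and Slc25a36 were 0.43 and -0.15.
Slc25a16 and Slc25a42 are both linked to mitochondrial coenzyme A. Slc25a16 had 9.79, 8.54 and 5.13 CPM in db/db hearts, against 12.0 and 11.8 CPM in WT hearts, a log2 fold change of -0.59 (SE 0.25, edgeR adjusted p = 0.364) that was -0.38 without the db/db male. Slc25a42 had 80.0, 61.9 and 75.7 CPM in db/db hearts, against 59.0 and 57.6 CPM in WT hearts, a log2 fold change of 0.32 (SE 0.15, edgeR adjusted p = 0.402). Neither gene's groups overlapped, and the 2 genes had opposite signs.
Slc25a39 had 241, 254 and 242 CPM in db/db hearts, against 207 and 228 CPM in WT hearts, a log2 fold change of 0.18 (SE 0.14) that was 0.01 with the offset. Its low-level paralog Slc25a40 had 5.10, 5.69 and 7.69 CPM in db/db hearts, against 6.72 and 5.34 CPM in WT hearts. Slc25a51, the NAD carrier, had 43.3, 47.6 and 33.2 CPM in db/db hearts, against 48.8 and 42.4 CPM in WT hearts, a log2 fold change of -0.14 (SE 0.17). The carriers of S-adenosylmethionine (Slc25a26) and folate (Slc25a32) and the peroxisomal cofactor carrier Slc25a17 had log2 fold changes between -0.21 and 0.10.

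Both iron carriers were expressed. Slc25a28, the mitoferrin of most tissues, had 38.0, 35.5 and 52.6 CPM in db/db hearts, against 35.0 and 41.9 CPM in WT hearts. Its log2 fold change was 0.13 (SE 0.19), and it was -0.04 with the offset. Slc25a37, the mitoferrin best known from red cell precursors, had 16.8, 16.0 and 17.3 CPM in db/db hearts, against 22.6 and 19.6 CPM in WT hearts, without overlap. Its log2 fold change was -0.34 (SE 0.16, edgeR adjusted p = 0.403), with all 3 db/db hearts below both WT hearts, as for Slc25a38. Exons of Slc25a37 share 381 bases with Gm31748 and 92 with Gm27223, both on the opposite strand.

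**Figure D4:**
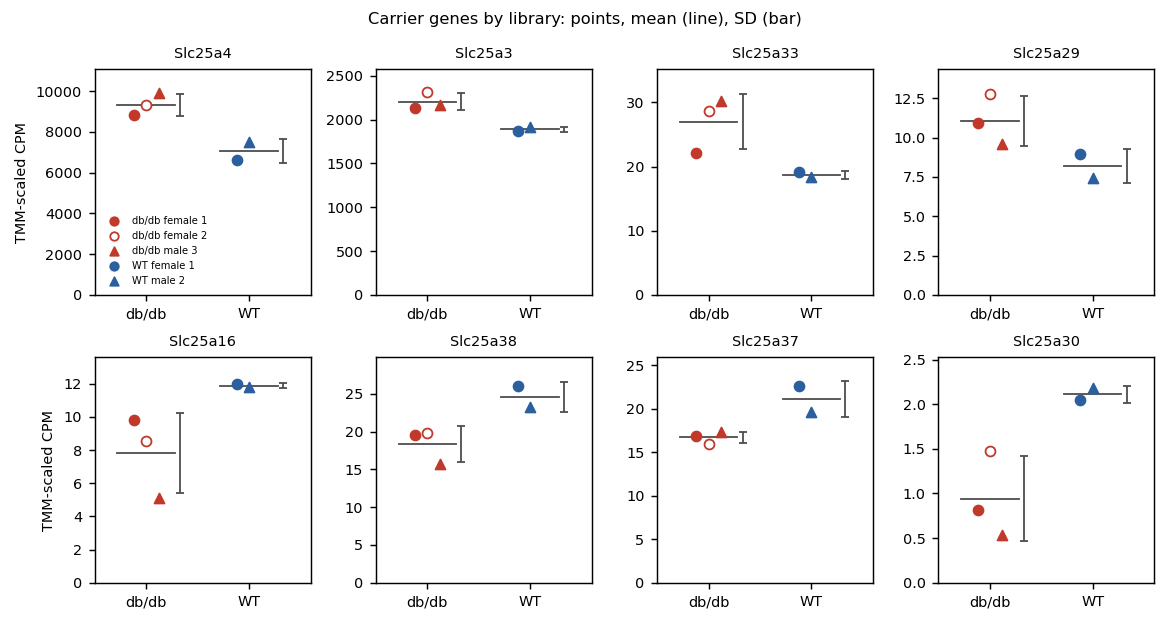
TMM-scaled CPM of 8 carriers in each library; points are libraries, horizontal lines group means and bars the SD (n = 3 db/db, n = 2 WT), with axes from 0. The 8 are all from the 7 higher and 10 lower members whose groups did not overlap, as in 31.6% of all tested genes. In each panel the 3 db/db points thus lie on the same side of both WT points, above for the upper 4 genes and below for the lower 4.

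Of the uncoupling-protein-like carriers, Slc25a30 had the largest fold change of the family, which rested on few counts. It had 8, 15 and 4 counts in db/db hearts, against 21 and 20 counts in WT hearts, and was picked out after its values were seen. The log2 fold change was -1.11 (SE 0.49, 95% interval -2.17 to -0.05, edgeR adjusted p = 0.368). Slc25a14 and Slc25a27, which have been linked to the brain, had overlapping groups and log2 fold changes of 0.05 and -0.02. Slc25a46, which acts in the outer membrane in mitochondrial dynamics, had 58.0, 51.7 and 61.0 CPM in db/db hearts, against 55.8 and 56.8 CPM in WT hearts. Among carriers with no settled substrate, Slc25a34 was the most abundant by FPKM (57.6), with 173, 136 and 173 CPM in db/db hearts, against 139 and 131 CPM in WT hearts, and a log2 fold change of 0.25 (SE 0.15). Slc25a35 had 6.63, 6.18 and 5.26 CPM in db/db hearts, against 7.49 and 8.07 CPM in WT hearts, a log2 fold change of -0.36 (SE 0.23, edgeR adjusted p = 0.520), and it shares 1151 exon bases with Rangrf on the opposite strand. Slc25a47, with 45, 52 and 43 counts in db/db hearts, against 36 and 33 in WT hearts, had a log2 fold change of 0.53 (SE 0.28), and Slc25a45 of 0.08.

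Paralogs with like substrates were set against each other within each library, as the difference of their log2(CPM + 0.5). Over the 10 splits of 5 libraries the exact permutation test can go no lower than a two-sided p of 0.1, so none of the 5 pairs could pass 0.05. Slc25a4 minus Slc25a5 was 4.93, 4.99 and 5.52 in db/db hearts, against 4.59 and 4.72 in WT hearts, a difference of 0.49 (exact p = 0.2, adjusted over 5 pairs 0.333). It was 0.30 without the db/db male, which was apart from the other hearts. By mean FPKM, Slc25a4 was 36.3-fold above Slc25a5.
Slc25a12 minus Slc25a13 was 1.62, 1.63 and 1.89 in db/db hearts, against 1.20 and 1.42 in WT hearts. The difference of 0.40 had the smallest exact p possible, 0.1 (adjusted 0.25), and ranged from 0.29 to 0.52 when each library was left out. Slc25a28 minus Slc25a37 was 1.15, 1.13 and 1.58 in db/db hearts, against 0.62 and 1.07 in WT hearts. The difference was 0.44 (exact p = 0.1, adjusted 0.25), and it was 0.21 without the WT female and 0.66 without the WT male. For Slc25a12 minus Slc25a13 and Slc25a28 minus Slc25a37, all 3 db/db hearts lay above both WT hearts, toward the more abundant paralog. How many gene pairs in general do so was not worked out. Of single tested genes, 31.6% did not overlap between genotypes in either direction. The differences were not adjusted for length. Slc25a28 and Slc25a37 have 1191 and 4105 bases, and with the length and GC offset their log2 fold changes were -0.04 and -0.25. Those of Slc25a12 and Slc25a13, with 2639 and 3001 bases, were 0.18 and -0.22. Slc25a22 minus Slc25a18 and Slc25a39 minus Slc25a40 overlapped between genotypes, with differences of -0.30 (exact p = 0.4) and 0.16 (exact p = 0.5). The first was -0.12 without db/db female 1, -0.45 without the db/db male, -0.19 without the WT male and -0.58 from log2(FPKM + 0.1), and it rests on the few counts of Slc25a18.

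**Figure D5:**
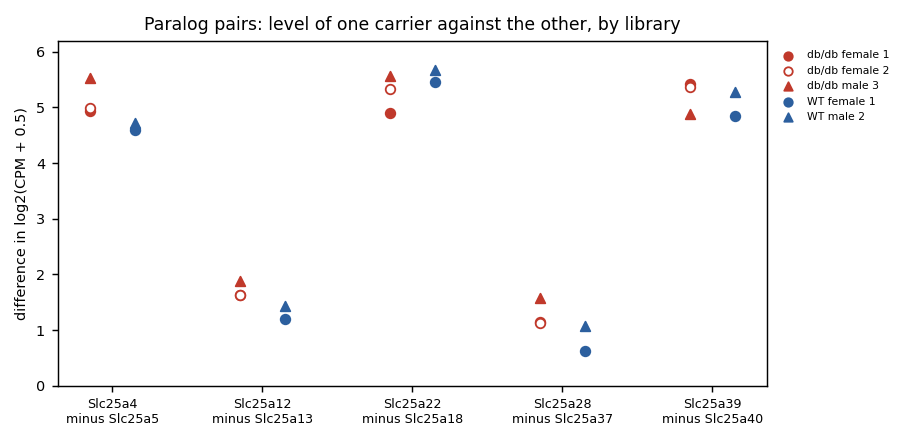
Difference in log2(CPM + 0.5) between paralogs in each library for 5 pairs; red symbols are db/db, blue symbols WT, circles females and triangles males. The db/db libraries lie above both WT libraries in the pairs led by Slc25a4, Slc25a12 and Slc25a28 and overlap them in the other 2.

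Sex was compared with genotype in the model. In male against female hearts 0 of 37 members were called, where 1.4% of genes were, and 3 had an unadjusted p under 0.05, where 14.9% of genes did. Slc25a28 had 52.6 CPM in the db/db male and 41.9 CPM in the WT male, against 38.0 and 35.5 CPM in the db/db females and 35.0 CPM in the WT female. Its log2 fold change, male over female, was 0.41 (SE 0.13, edgeR adjusted p = 0.152) and 0.26 with the length and GC offset. Slc25a51 had 33.2 CPM in the db/db male and 42.4 CPM in the WT male, against 43.3 and 47.6 CPM in the db/db females and 48.8 CPM in the WT female. It had the smallest p among members lower in males, with -0.34 (SE 0.14, edgeR adjusted p = 0.252). With the offset Slc25a51 was at -0.24. Slc25a5 (-0.34), Slc25a17 (-0.44) and Slc25a38 (-0.37) then had smaller unadjusted p-values, and none was called. Whether genotype acted differently in the sexes was fitted on 1 residual degree of freedom, from the 2 db/db females. The interaction called 0 of 37 members, where 1.16% of genes were called, and 2 members, Slc25a5 and Slc25a22, had an unadjusted p under 0.05, where 9.86% of genes did.

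Genes that work with the carriers were read from 3 lists. The carrier import machinery, the TIM and TOM subunits and chaperones that insert carriers into the membrane, had 0 of 16 genes called and 14 positive log2 fold changes, where 6147 of 12540 tested genes were positive. Of the 16, 10 were positive with the length and GC offset, as were 6166 of 12540 tested genes. With library totals 9 of the 16 were positive, as were 3278 of all tested genes. The median of the 16 was 0.20, 0.09 with the offset and 0.03 with library totals. Those of all tested genes were -0.01, -0.01 and -0.19. Other mitochondrial transporters had 0 of 26 called and a median of 0.13. Among them, Ucp2, an uncoupling protein of the same protein family, had 149, 128 and 158 CPM in db/db hearts, against 82.6 and 101 CPM in WT hearts. The fold change on the log2 scale was 0.66 (SE 0.15, edgeR adjusted p = 0.0819), and with sex as a covariate it passed, at 0.71 (edgeR adjusted p = 0.00394). Ucp3, the muscle uncoupling protein, had 0.69 (SE 0.23, edgeR adjusted p = 0.259). The pyruvate carrier subunits Mpc1 and Mpc2 had 0.01 and 0.30, and the calcium uniporter Mcu had -0.16, none of them called.
Among enzymes that make or use what the carriers move, 1 of 18 was called, where 1.03% of all tested genes were. With sex as a covariate 3 were called, where 6.61% of all tested genes were. Gpd1, the cytosolic glycerol-3-phosphate dehydrogenase of the other shuttle for cytosolic NADH, had 92.8, 78.4 and 97.5 CPM in db/db hearts, against 40.2 and 48.2 CPM in WT hearts. It rose by a log2 fold change of 1.02 (SE 0.16, edgeR adjusted p = 0.0119), with every db/db heart above both WT hearts. The carriers of the malate-aspartate shuttle, which serves the same end, were not called. Gpd1 is also high in fat, and the 6 white fat markers summed to 1.63, 2.75 and 2.83 CPM in db/db hearts, against 4.09 and 0.545 CPM in WT hearts, with no marker passing the filter on low counts. Of the 2 brown fat markers, Ucp1 had 4, 31 and 1 counts in db/db hearts, against 2 and 1 counts in WT hearts, and was not tested. The other, Cidea, which was named after its values were seen, had 60.9, 53.7 and 85.3 CPM in db/db hearts, against 36.6 and 48.9 CPM in WT hearts. Like Gpd1 it was higher in all 3 db/db hearts, with a log2 fold change of 0.64 (SE 0.21, edgeR adjusted p = 0.238) that passed with sex as a covariate (0.71, edgeR adjusted p = 0.00565). The part of fat cells in the Gpd1 difference was not tested.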

How the data were processed

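Poly-A RNA from 3 db/db and 2 WT hearts was analysed. Per the file headers, the authors deposited per-gene estimated counts (expected counts, not normalized) made from aligned reads, and FPKM. The table also holds the authors' own test of db/db against WT, as a log2 fold change with its p-value and q-value. The submitters' processing notes name HISAT, Bowtie2, DESeq2 and the build GRCm38.p6. The counting program and its strand setting are not given in the sources used here. FPKM, as deposited, divides by library size and by gene length. Of the estimated counts 91.4% were whole as printed, and all were rounded. A stray line of text was removed, 23 symbols turned into dates were restored, and 5 columns of other per-sample values were not used.

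Genes were tested with edgeR 4.0.16 in R 4.3.3 (TMM scaling, filter on low counts by genotype, robust quasi-likelihood F test, Benjamini-Hochberg adjustment over all 12540 tested genes, threshold 0.05). The edgeR model held genotype alone. SEs were derived from the F statistics. Alternatives were DESeq2 1.42.0, limma-voom and limma on log2 FPKM (limma 3.58.1), other scalings, filters and covariates, leaving out libraries, and a loess offset for length and GC content (span 0.3). Gene lengths were worked out from each count and its FPKM, and GC came from GENCODE M21. The scripts were tested on simulated data.

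The members, role groups and lists were chosen with earlier results of these data known. Values per library are given for members called with or without sex as a covariate, the 6 highest in FPKM, the 3 largest fold changes in each direction at 5 CPM or more, 5 fixed pairs and the smallest p for sex in each direction. Further members were added after their values were seen. No protein sequences were used here. The values of 1 member, which is counted in every total, are not reported here.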

Additional observations from a re-analysis of the deposited data

How the results depend on the processing

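No member was called under DESeq2, limma-voom, the other scalings and filters, FPKM, the replicate block or leaving out a library. With sex as a covariate, and in females alone, 1 member was called (Slc25a4), and 1 with the length and GC offset and sex (Slc25a38). Calls over all genes were 129 (84 higher, 45 lower), and library totals turned the split to 59 and 85, log2(FPKM + 1) to 57 and 58, and log2(FPKM + 0.1) to 56 and 51. They were 234 with DESeq2, 259 without a filter, 829 with sex, 984 in females, 434 with offset and sex, 433 with neither the db/db male nor the WT female, 40 against a log2 fold change of 0.5, and 25 (without the WT female) to 240 (without the db/db male) when each library was left out. Whether the title numbers pair the samples cannot be told from these libraries. By title the db/db male, here male 3, has number 1. In deviations from the group means, db/db female 1 and the db/db male had correlations of 0.15 and -0.20 with the same-numbered WT female. For db/db female 2 it was -0.11, with the same-numbered WT male. With 2 WT libraries these deviations mirror each other, so each db/db library has opposite correlations with them. With the title number as a replicate block 80 genes and 0 members were called. The median of the members was -0.17 with library totals and -0.12 with either FPKM scale, where the medians of all genes were -0.19, -0.15 and -0.17, and -0.081 to 0.041 when each library was left out. Calls between the sexes were 176 over all genes, 296 with DESeq2, 420 without a filter, 40 with library totals and 37 with the offset. The cause of these shifts was not tested. The reversals that follow are those of the 17 members named by the rule that were tested. Library totals reversed Slc25a11 (-0.13), Slc25a12 (-0.050), Slc25a22 (-0.097), Slc25a28 (-0.062), Slc25a39 (-0.0026) and Slc25a40 (-0.18). Log2 FPKM with pseudocounts of 1 and 0.1 reversed Slc25a11 (-0.12 and -0.12), Slc25a12 (-0.049 and -0.049), Slc25a22 (-0.050 and -0.050), Slc25a28 (-0.025 and -0.026) and Slc25a40 (-0.12 and -0.16). The offset reversed Slc25a11 (-0.082) and Slc25a28 (-0.042), and offset with sex Slc25a11 (-0.088), Slc25a28 (-0.0091) and Slc25a39 (-0.0030). Females alone reversed Slc25a5 (0.083), Slc25a22 (-0.20) and Slc25a40 (-0.31). With neither the db/db male nor the WT female, Slc25a5 (0.038), Slc25a11 (-0.026), Slc25a28 (-0.19) and Slc25a51 (0.10) reversed. Slc25a40 also reversed with limma-voom (-0.014) and the replicate block (-0.011). When each library was left out, the value crossed 0 for Slc25a5 (-0.15 to 0.057), Slc25a11 (-0.029 to 0.14), Slc25a22 (-0.22 to 0.52), Slc25a28 (-0.065 to 0.26), Slc25a40 (-0.16 to 0.19) and the pair Slc25a39 minus Slc25a40 (-0.061 to 0.38). It moved by over 1.5 times without crossing 0 for Slc25a12 (0.041 to 0.22), Slc25a13 (-0.41 to -0.14), Slc25a16 (-0.78 to -0.38), Slc25a39 (0.11 to 0.25) and Slc25a51 (-0.25 to -0.0063). With 3 against 2 hearts, small changes in either direction were not detectable here.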
